A study of Mus musculus with 14 samples.

Results

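RNA from cultured mouse astrocytes exposed to an siRNA, a small interfering RNA, for connexin43 (Cx43, the product of Gja1) was compared with RNA from untreated wild-type astrocytes. The 4 samples titled Cx43 siRNA, replicates 1 to 4, were set against wild-type replicates 3, 4 and 6, which makes 7 of the 14 samples of the series. The columns of wild-type replicates 1, 2 and 5 are misplaced on the array grid or of unclear scale and were left out. Of the 33600 probes on the array, 18179 carried 1 gene symbol, and 21270 probes had 2 or more values on each side and were tested. Of the tested probes, 12877 carried 1 symbol, for 10281 genes.

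All cells came from brains of newborn mice, each littermate's brain cultured on its own for 1 week and then passaged once, with no strain named in the labels used here. The sample titles name cortical astrocytes, while the dissection protocol speaks of whole brain. The siRNA cultures were transfected at confluence with 20 ug of a Cx43 siRNA construct. The design text gives 36 h of treatment and the protocol collected protein at 48 h. No control siRNA or mock-transfected sample was analysed here, so transfection and loss of Cx43 cannot be told apart in any result below. The samples labelled Cx43 null, from mice without Cx43, are quoted only as further values beside single genes and lists, and in an alternative fit. Odd replicates were labelled with Cy3 and even replicates with Cy5.

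Cx43 is the main protein of astrocyte gap junctions, the channels through which neighbouring astrocytes pass ions and small metabolites to one another, and it also binds scaffold proteins such as ZO-1. A short double-stranded RNA silences its target through the RNA interference machinery. Cells also carry sensors for foreign RNA, which switch on type I interferon; interferon acts through transcription factors such as IRF9 on short elements with paired GAAA units in the promoters of antiviral genes. NF-kB, which binds elements of the form GGG, a short spacer and TTTCC, drives chemokines and acute-phase genes in the same settings.

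Of the 28 genes that rose in the siRNA samples, 14 stood in a list of interferon response genes. At a limma adjusted p under 0.05, 59 of 21270 probes were called (0.277%), 39 higher in siRNA samples (0.183%) and 20 lower (0.094%). Of these, 43 probes carried 1 symbol, for 28 genes that rose and 13 that fell. The absolute log2 differences of the 43 ran from 3.07 to 8.38, against a median standard error (SE) of 0.65 over tested probes. Differences are log2 values, siRNA minus wild type, ± SE, followed in parentheses by the limma adjusted p. The siRNA and wild-type values did not overlap at any of the 43 probes. Within replicates 3 and above 42 of them could be compared, and values without overlap fix the same sign there in advance. The other, Csn3, which encodes kappa-casein, fell by 5.78 ± 0.73 (0.0486). That probe was measured in siRNA replicates 1 and 2 and wild-type replicates 3 and 4 alone. Other probes of Csn3 had -0.52 (0.811) and -2.44 (0.449), with 0.14 and -1.29 within replicates 3 and above. With consecutive samples, which read nearly alike, as a random block, 14 probes were called (0.0658%). Of the 41 genes, 11 were called with this block, namely Slc26a3, Egfl6, Hpgd, Rps13, Irf7, Cxcl10, Ccl5, Ccl7, Lcn2, Steap4 and Oasl1; every other call named below is lost with it. The number of calls changed with single samples: 0 without wild-type replicate 3 or without wild-type replicate 4, 10 without wild-type replicate 6, 126 without siRNA replicate 1, 19 without siRNA replicate 3 and 38 without siRNA replicate 4. At an unadjusted p under 0.05, there were 981 of 19043 probes without wild-type replicate 3 (5.15%) and 1269 of 20148 without wild-type replicate 4 (6.3%), near the share that this threshold lets through where no probe differs, against 2167 of 21270 in all 7 samples (10.2%). Every call named below is thus lost without wild-type replicate 3 and without wild-type replicate 4, save at Slc26a3, Egfl6 and Tex101, which could not be fitted without either, and at Ccl7 and Oasl1, which could not be fitted without wild-type replicate 3. The design text speaks of 4 independent cultures per group, but no label links samples with cultures; the p-values therefore rest on sample-to-sample spread that may be technical in origin.

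**Figure D1:**
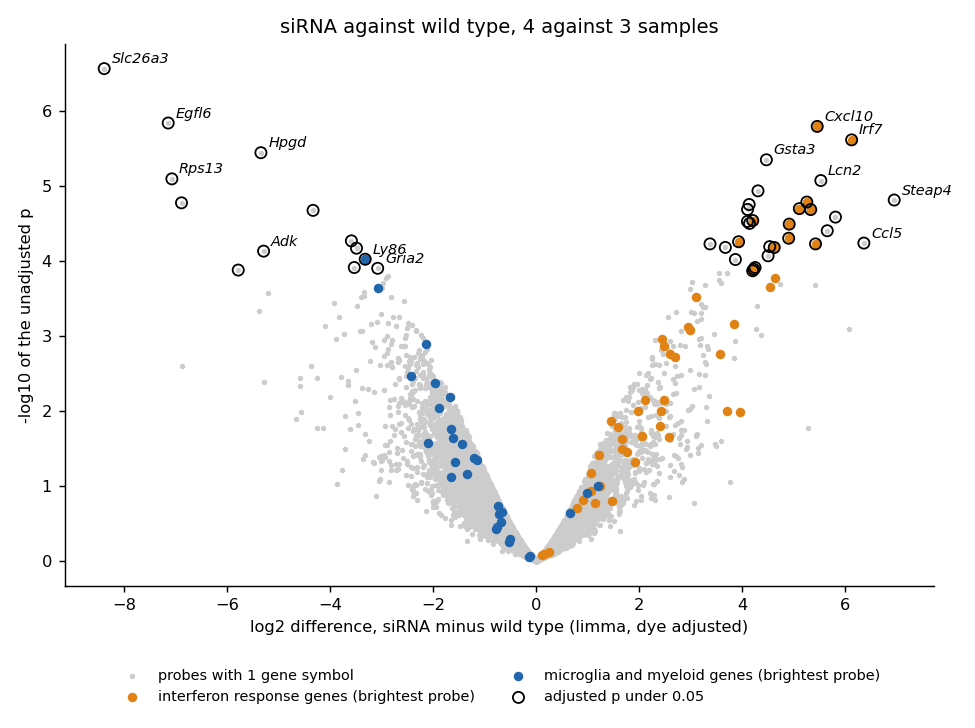
Each point is a tested probe with 1 gene symbol, placed by its log2 difference (siRNA minus wild type, limma, 4 against 3 samples) and the negative log10 of its unadjusted p. Interferon response genes are orange, microglia and myeloid genes blue, and rings mark adjusted p under 0.05. Each of the 50 interferon response genes lies to the right of 0 at its brightest probe, while a dimmer probe of Isg20 lies at -0.43.

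Because many of the genes that rose are known targets of interferon or NF-kB, 6 of their promoters are printed here, chosen because they hold elements of these pathways, 250 bases up to the gene's start from RefSeq (GRCm38.p6), 5′ to 3′ on the gene's strand. Capitals mark, on either strand, a GAAA pair (GAAA, any 2 bases, GAAA), the core of an interferon-stimulated response element, or an NF-kB type element (GGG, any 2 bases, TTTCC). A promoter entry was found for 20 of the 28 genes that rose and 11 of the 13 that fell. Cxcl10 (chr5:92348890-92349139, minus strand), the chemokine IP-10, has 1 GAAA pair 213 bases before its start. Isg15 (chr4:156200819-156201068, minus strand), a ubiquitin-like protein, has 3 overlapping GAAA pairs starting 78, 72 and 66 bases before the start. Rsad2 (chr12:26456453-26456702, minus strand), the antiviral enzyme viperin, has 1 at 120 bases, read on the opposite strand. The GTPase genes Tgtp1 (chr11:48992247-48992496, minus strand) and Igtp (chr11:58199306-58199555, plus strand) have 1 each, at 77 and 34 bases. Il6 (chr5:30012864-30013113, plus strand), a cytokine, is shown for its NF-kB type element at 44 bases.
Cxcl10: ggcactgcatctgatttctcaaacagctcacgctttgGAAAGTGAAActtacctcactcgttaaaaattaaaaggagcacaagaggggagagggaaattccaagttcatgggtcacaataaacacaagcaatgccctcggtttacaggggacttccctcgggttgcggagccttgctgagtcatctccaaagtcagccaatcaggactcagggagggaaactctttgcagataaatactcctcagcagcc
Isg15: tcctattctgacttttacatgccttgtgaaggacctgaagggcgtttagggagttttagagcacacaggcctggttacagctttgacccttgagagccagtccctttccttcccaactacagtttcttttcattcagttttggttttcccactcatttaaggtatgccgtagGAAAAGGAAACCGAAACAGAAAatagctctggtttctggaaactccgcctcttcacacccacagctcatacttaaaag
Rsad2: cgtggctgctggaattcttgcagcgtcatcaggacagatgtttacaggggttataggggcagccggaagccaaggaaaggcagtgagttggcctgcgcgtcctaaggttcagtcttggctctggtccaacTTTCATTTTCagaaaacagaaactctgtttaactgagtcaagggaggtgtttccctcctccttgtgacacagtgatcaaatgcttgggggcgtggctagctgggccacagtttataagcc
Tgtp1: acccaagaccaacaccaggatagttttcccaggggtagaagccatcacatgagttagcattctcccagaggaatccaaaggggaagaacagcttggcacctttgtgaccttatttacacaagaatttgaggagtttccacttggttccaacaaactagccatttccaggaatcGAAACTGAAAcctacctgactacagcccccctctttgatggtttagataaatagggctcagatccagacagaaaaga
Igtp: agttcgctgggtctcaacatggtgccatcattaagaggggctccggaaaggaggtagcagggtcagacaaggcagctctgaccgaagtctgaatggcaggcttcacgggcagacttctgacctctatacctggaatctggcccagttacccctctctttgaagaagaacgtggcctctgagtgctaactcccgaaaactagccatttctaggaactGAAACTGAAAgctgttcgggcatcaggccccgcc
Il6: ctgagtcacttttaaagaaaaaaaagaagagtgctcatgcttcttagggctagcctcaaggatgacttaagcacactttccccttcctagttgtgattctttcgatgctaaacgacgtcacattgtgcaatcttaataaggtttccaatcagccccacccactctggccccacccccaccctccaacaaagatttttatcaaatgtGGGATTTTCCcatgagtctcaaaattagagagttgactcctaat

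Among genes with a promoter entry, a GAAA pair stood in 5 of the 20 that rose (25%) and in 0 of the 11 that fell. It stood in 936 of all 27025 such genes (3.46%) and in 280 of the 8334 tested (3.36%). A gene with several promoters was counted once, if any of them held the element. The NF-kB type element stood in 2 of the 20 (10%, Il6 and Steap4) and 0 of the 11, against 1.65% of all genes with a promoter entry. The match of letters is a description only, and many promoters of genes that rose, such as that of Irf7, hold neither in these 250 bases.

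Between 17849 and 26563 probes had a value per sample (53.1% to 79.1%), and each sample correlated with the mean of the other 6 at r of 0.887 to 0.943 across probes. Of 1344 block columns on the grid, 1214 to 1317 matched the other samples best in place. Replicates 1 and 2 of siRNA correlated with each other at 0.988 and replicates 3 and 4 at 0.967, above all correlations between these pairs (0.77 to 0.801). With the wild-type samples, siRNA replicates 1 and 2 correlated at 0.797 to 0.832 and replicates 3 and 4 at 0.856 to 0.891. Across probes each siRNA pair was thus mostly closer to wild type than to the other siRNA pair. Wild type has no usable replicate 1 or 2; differences within replicates 3 and above, siRNA 3 and 4 against wild type 3, 4 and 6, are therefore given too. Over all genes the median difference from wild type was -0.61 in siRNA replicates 1 and 2 and -0.03 in replicates 3 and 4. Signal over background is unknown, and missing values carry no reason.

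Gja1, the target, read 6.08, 7.53 and 4.82 in wild-type replicates 3, 4 and 6, and 1.93, 2.13, 5.47 and 5.70 in siRNA replicates 1 to 4. Only siRNA replicates 1 and 2 lay below all wild-type values, while replicates 3 and 4 lay between wild-type replicates 6 and 3. The null samples, from mice without Cx43, were divided in the same way. They read -1.165 and -1.055 in replicates 1 and 2 and 2.822 and 3.03 in replicates 3 and 4. siRNA replicates 1 and 2 lay 3.14 above null replicates 1 and 2. No wild-type value of replicates 1 and 2 was used to place either pair. The mean difference was -2.34 (5.05-fold lower), within the spread of the samples (exact two-sided permutation p = 0.2286, where 35 splits allow 0.0286). siRNA replicates 3 and 4 lay 1.48-fold below the mean of the 3 wild-type samples and, without wild-type replicate 6, 2.33-fold below that of wild-type replicates 3 and 4. The design text gives a 3.24-fold fall of the mRNA and at least 70% less protein. The Gja1 values of siRNA replicates 3 and 4 thus overlapped wild type.

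Interferon response genes were higher as a group in the siRNA samples. Of 50 tested members, 14 rose (28 of 10281 genes, 0.272%, rose in all), 0 fell, and all 50 had positive differences at their brightest probe, against 35.1% of all genes. The median log2 difference was 2.54, against -0.30 for all genes, and in 40 of the 50 every siRNA sample lay above every wild-type sample, against 4.5% of all genes. The list median was 2.15 in siRNA replicates 1 and 2 and 3.45 in replicates 3 and 4; in Cx43 null samples, measured against the same wild-type samples, it was 0.57 in replicates 1 and 2 and -0.31 in replicates 3 and 4. Within replicates 3 and above 25 members were called higher (1.14% of probes), and with consecutive samples as a block 3 (0.047%). Without wild-type replicate 3 or 4 there were 0, and without wild-type replicate 6, siRNA replicate 3 or siRNA replicate 4 there were 3, 5 and 9. The median stayed between 2.37 and 3.57 over the 17 settings tried, these included.

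Irf7, a transcription factor of the positive feedback in interferon production, showed the largest change of the list. It read -2.03, -1.80 and -0.19 in wild type and 3.79, 4.45, 5.08 and 5.34 in siRNA samples. Every siRNA sample was far above every wild-type sample, a rise of 6.12 ± 0.62 (SE, log2; 69.8-fold, adjusted p = 0.0123). The null samples read 0.91, 1.26, -2.05 and -2.21, so null replicates 1 and 2 stood above the wild-type samples too. The difference within replicates 3 and above was 6.55. Irf9, a DNA-binding factor of the interferon response, had 2.45 (adjusted p = 0.136) at its brighter probe and 1.14 at the other. Stat2 had 1.99 (0.32) and Irf1 1.06 (0.522). None of these 3 was called, though at the probes of largest signal their siRNA samples all lay above wild type.

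Zbp1, a sensor of Z-form nucleic acid, was the 1 member called among the 21 tested genes for nucleic acid sensing and RNA interference. Its called probe read -0.51, -2.20 and -0.38 in wild type and 2.66, 2.83, 2.59 and 3.30 in siRNA samples, a rise of 3.87 ± 0.61 (adjusted p = 0.0418). The groups stood well apart. Its 2 other probes gave 4.63 (0.0539) and 2.30 (0.651), the last raised only in siRNA replicates 3 and 4. The same split held for Tlr3, the endosomal receptor of double-stranded RNA, which read 1.57, 0.51 and 0.48 in wild type, 0.12 and 0.28 in siRNA replicates 1 and 2, and 5.20 and 4.64 in replicates 3 and 4. Its difference of 1.62 did not pass (0.707). Ddx58, which encodes the cytosolic RNA sensor RIG-I, had 1.15 (0.658) and Ifih1, which encodes MDA5, 1.46 (0.359). The median of the 21 genes was 0.48, against -0.30 for all genes, of which 0.272% were called higher.

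The antiviral effectors Rsad2, Mx2, Oasl1 and Oasl2 rose. Rsad2 read -0.13, -1.15 and 1.38 in wild type and 5.41, 5.15, 4.62 and 4.59 in siRNA samples, a rise of 4.91 ± 0.67 (30.1-fold, adjusted p = 0.025). Here all 4 siRNA samples were close to each other. Mx2, a dynamin-like GTPase, read -2.78, -2.96 and -0.43 in wild type and 3.77, 4.55, 2.20 and 2.45 in siRNA samples, a rise of 5.42 ± 0.80 (adjusted p = 0.0343). In this gene siRNA replicates 1 and 2 were the higher pair. Oasl1 read -1.68 and -2.40 in wild-type replicates 3 and 6 and 3.11, 3.62, 2.71 and 2.84 in siRNA samples, and rose by 5.11 ± 0.61 (adjusted p = 0.0226). Its relative Oasl2 rose by 4.23 ± 0.69 (0.0486). Both encode oligoadenylate synthetase-like proteins. Null replicates 1 and 2 read 2.42 and 2.25 for Rsad2 and 0.39 and 0.69 for Oasl1, above all wild-type values. For Mx2 they read -2.07 and -1.89, within the wild-type values. In the fit of replicates 3 and above alone the differences were 4.57 for Rsad2, 4.38 for Mx2, 4.81 for Oasl1 and 4.22 for Oasl2.

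Isg15, which is joined to other proteins after interferon, read 0.94, 1.35 and 3.27 in wild type and 5.05, 5.38, 6.15 and 7.04 in siRNA samples. It rose by 4.20 ± 0.69 (adjusted p = 0.0491). Usp18, the enzyme that removes Isg15 and dampens the interferon receptor, rose by 4.62 ± 0.69 (0.0353), from 0.29, -1.19 and 1.45 to 4.80, 5.39, 4.15 and 4.70. Isg20, an exonuclease, rose by 3.93 ± 0.58 (0.0343) at 1 probe while its 2 other probes had 1.43 and -0.43. Ifit1, which binds foreign RNA ends, missed the threshold with 4.55 ± 0.80 (0.0612), its siRNA samples at 5.99 to 6.74 and its wild-type samples at 0.83, 0.67 and 4.17. In Isg15, Usp18 and Ifit1 alike, wild-type replicate 6 was the highest wild-type value. The corresponding differences within replicates 3 and above were 4.74 for Isg15, 4.24 for Usp18 and 4.13 for Isg20.

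The interferon-induced GTPase genes Tgtp1, Ifi47 and Igtp rose. Tgtp1 read 0.99, -0.66 and 0.72 in wild type and 4.87, 4.97, 6.26 and 6.76 in siRNA samples, a rise of 5.33 ± 0.69 (40.2-fold, adjusted p = 0.0226). Ifi47 read 0.14, -1.41 and 0.28 in wild type and 4.22, 4.35, 5.41 and 5.79 in siRNA samples, a rise of 5.25 ± 0.66 (0.0226). Null replicates 1 and 2 read 2.24 and 2.32 for Ifi47, above wild type, and 0.75 and 0.69 for Tgtp1, within it. Igtp read 0.86, 1.10 and 2.86 in wild type and 5.44, 6.08, 5.18 and 5.97 in siRNA samples, a rise of 4.20 ± 0.57 (0.025). Replicates 3 and above alone gave 6.16, 5.93 and 3.97. All 3 belong to families of proteins that act on the vacuoles of intracellular parasites. Tgtp1 has a near-identical copy, so its probe may read both. Gbp2, a guanylate-binding protein, had 2.99 (0.124) with no overlap between the groups.

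**Figure D2:**
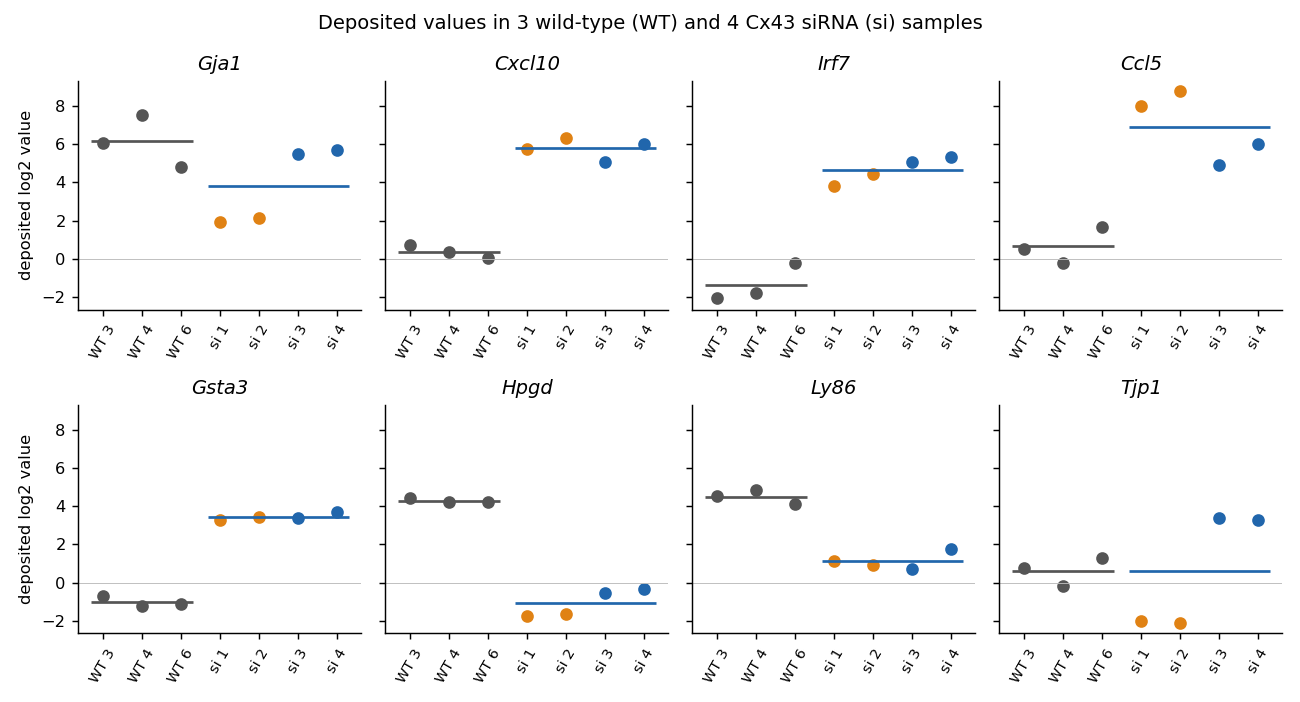
Deposited log2 values of single genes (vertical axis) in wild-type replicates 3, 4 and 6 and siRNA replicates 1 to 4 (horizontal axis), 1 point per sample. Genes such as Irf7 and Cxcl10 separate all siRNA from all wild-type samples, while Gja1 and Tjp1 divide siRNA replicates 1 and 2 from replicates 3 and 4.

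Ifnb1, the gene of interferon beta, could not be tested because no wild-type sample of the 3 held a value. It read 0.89, 0.88, 0.50 and 1.11 in the 4 siRNA samples, with -3.29 and -2.92 in null replicates 3 and 4, and null replicates 1 and 2 held no value. Only 30 probes with 1 symbol had values in every siRNA sample and in none of the 3 wild-type samples, and only 3 of these, including Ifnb1 and Eef1e1, a subunit of the aminoacyl-tRNA synthetase complex, were above 0 in all 4. Cxcl9, another interferon-induced chemokine (-1.32, -1.41, 0.50 and 0.92), and Cfb, complement factor B (-0.35, -0.31, 1.90 and 2.03), were 2 more. A single print block, block 44 of 48, held 8 of the 30, Eef1e1 among them; Ifnb1 and Cfb lie in block 8 and Cxcl9 in block 14. Probes with values in all 3 wild-type and in no siRNA sample numbered 93, none above 0 in all 3.

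Chemokine genes rose too, but the lists shared genes, with 1067 tested entries for 1003 genes over 40 lists. A call counted here can therefore repeat a call counted for another list. Of 18 tested chemokine genes, 5 rose, against 0.272% of all genes, and 0 fell (median 1.10). In 7 every siRNA sample lay above every wild-type sample, against 4.5% of all genes. The list median was 0.30 in siRNA replicates 1 and 2 and 1.63 in replicates 3 and 4. Within the null samples it was -0.38 in replicates 1 and 2 and -0.21 in replicates 3 and 4. Cxcl10 read 0.70, 0.36 and 0.05 in wild type and 5.76, 6.31, 5.08 and 5.99 in siRNA samples. It rose by 5.46 ± 0.53 (43.9-fold, adjusted p = 0.0115) and read 0.76 to 1.40 in the null samples. Cxcl11, which binds the same chemokine receptor, CXCR3, on T cells, rose by 4.90 ± 0.71 (0.0343), from -0.84, -1.78 and -2.01 to 2.59, 2.30, 4.17 and 4.63. For both, every siRNA sample exceeded every wild-type and null sample, and within replicates 3 and above the differences were 5.17 for Cxcl10 and 5.94 for Cxcl11.

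Ccl5, a chemokine for T cells and monocytes, read 0.50, -0.20 and 1.69 in wild type and 7.98, 8.76, 4.89 and 6.02 in siRNA samples, a rise of 6.36 ± 0.94 (82.2-fold, adjusted p = 0.0343). Null replicates 1 and 2 read 4.69 and 4.90 and null replicates 3 and 4 -0.45 and 0.29, so replicates 1 and 2 were the high pair in the siRNA and in the null samples. For Ccl5 the difference within replicates 3 and above was 4.79. The monocyte chemokines Ccl2 and Ccl7, neighbours in 1 cluster, rose by 4.25 ± 0.65 (0.0485) and 5.81 ± 0.72 (0.025). Ccl7 read -0.41 and -1.59 in wild-type replicates 3 and 6 and 4.04, 4.34, 5.17 and 5.69 in siRNA samples; Ccl2 read 2.08, 1.78 and 3.34 against 6.51, 6.71 and 6.36, with no value in siRNA replicate 4. Ccl7 had 6.43 within replicates 3 and above, where Ccl2 had too few values. Cxcl1, a neutrophil chemokine, had a difference of 6.07 that did not pass (0.124), with siRNA values of 2.69, 3.41, 6.74 and 6.24.

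Of 30 genes of the NF-kB and cytokine list, 2 rose, against 0.272% of all genes, and 0 fell. The list median was 0.92, with -0.01 in siRNA replicates 1 and 2 and 1.79 in replicates 3 and 4. Il6, an acute-phase cytokine, read -2.54, -3.60 and -2.29 in wild type and 1.29, 1.29, 1.60 and 1.30 in siRNA samples. The siRNA samples hardly varied, and Il6 rose by 4.13 ± 0.53 (17.6-fold, adjusted p = 0.0226). Vcam1, an adhesion molecule for leukocytes, rose by 3.67 ± 0.55 (0.0353), from -0.15, 0.01 and 0.93 to 3.57, 3.46, 4.44 and 4.18, and its other probe had 2.32 (0.422). With consecutive samples as a block neither was called (adjusted p = 0.109 for Il6 and 0.193 for Vcam1). Replicates 3 and above alone gave 4.26 for Il6 and 4.05 for Vcam1. Nfkbia, the NF-kB inhibitor and its target, had 1.66 (0.501), and Icam1, another leukocyte adhesion molecule, -0.66 (0.812). Ptgs2, which encodes cyclooxygenase-2, stood just outside the threshold with 3.70 ± 0.61 (0.0513), at 2.50, 2.66, 3.43 and 2.79 in siRNA samples against 0.31, -2.32 and -1.03 in wild type.

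Of 16 tested genes of class I antigen presentation 2 rose, H2-K1 and H2-D1, against 0.272% of all genes. In 7 every siRNA sample lay above every wild-type sample, against 4.5% of all genes. The list median was 0.98, with 0.66 in siRNA replicates 1 and 2 and 2.10 in replicates 3 and 4. H2-K1, a heavy chain that shows peptides to cytotoxic T cells, read 1.48, 2.70 and 2.74 in wild type and 5.58, 6.41, 6.42 and 7.35 in siRNA samples, a rise of 4.31 ± 0.52 (adjusted p = 0.0226). Its 2 other probes had 1.64 and 2.35 and did not pass. H2-D1 rose by 4.14 ± 0.57 (0.025) and, at a second probe, by 3.38 ± 0.50 (0.0343). All null samples lay above all wild-type samples too, at 2.97 to 3.51 for the called H2-K1 probe and 2.57 to 3.70 for the first H2-D1 probe. H2-Q10, a gene of the same family outside the list, rose at 2 probes, by 4.10 ± 0.53 (0.0226) and 4.50 ± 0.70 (0.0397). With consecutive samples as a block H2-K1 and H2-D1 were not called (adjusted p = 0.0654 and 0.0822). These genes are near-identical copies, and a probe of 1 may read the RNA of another. H2-K1 within replicates 3 and above had a difference of 4.58, and H2-D1 4.60 at the first probe. Psmb8, an immunoproteasome subunit, had 3.01 (0.0953), and the peptide transporter gene Tap1 1.78, 3.34 and 3.84 at its 3 probes, none called.

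Of 31 reactive astrocyte genes 5 rose, against 0.272% of all genes, and 0 fell. The list median was 0.86 (0.13 in siRNA replicates 1 and 2, 1.44 in replicates 3 and 4). In 12 all siRNA samples lay above wild type, against 4.5% of all genes. Some genes of the reactive astrocyte list stand in the lists above as well. Lcn2, lipocalin-2, which binds bacterial iron carriers, read 0.75, 0.94 and 1.88 in wild type and 6.47, 6.88 and 6.20 in siRNA replicates 1 to 3, with no value in replicate 4. It rose by 5.53 ± 0.59 (46.1-fold, adjusted p = 0.0202). At its other probe the siRNA values were 1.78, 2.64 and 6.30 and the difference of 2.98 did not pass (0.458), so the 2 probes of Lcn2 differed for replicates 1 and 2. Null samples read 3.58, 3.53, 1.69 and 2.46 at the called probe. Ptx3, a secreted pentraxin that marks microbes, read -0.15, -0.46 and 0.02 in wild type and 3.20, 3.52, 5.08 and 5.44 in siRNA samples, and rose by 4.53 ± 0.68 (0.0353; 5.46 within replicates 3 and above). Gfap, the filament protein of reactive astrocytes, had no probe with enough values to be tested.

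Steap4, a metalloreductase induced by inflammatory cytokines, had the largest rise, 6.95 ± 0.72 (124-fold, adjusted p = 0.0226). It was measured at the called probe in siRNA replicates 3 and 4 alone, at 6.05 and 6.01, against 0.20, -1.83 and -1.70 in wild type. At its other probe siRNA replicates 1 and 2 read -1.92 and -1.13, at the wild-type level of -1.74 and -0.77, while replicates 3 and 4 read 5.05 and 5.25. The rise of Steap4 was therefore seen in siRNA replicates 3 and 4 and not in 1 and 2. Lars2, which encodes the mitochondrial leucyl-tRNA synthetase, was also called from siRNA replicates 3 and 4 alone (5.70 and 5.81 against 0.34, 0.37 and -0.49; 5.65 ± 0.67, 0.0292), and its 2 other probes had 0.53 and -0.01.

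Outside the immune lists, Gsta3 and Nr4a2 rose. Gsta3, a glutathione transferase driven by the oxidative stress factor Nrf2, read -0.72, -1.24 and -1.14 in wild type and 3.27, 3.41, 3.39 and 3.71 in siRNA samples, a rise of 4.47 ± 0.49 (22.2-fold, adjusted p = 0.0137), while the null samples read -2.59 to -1.06. It was the only called gene of 34 on the Nrf2 list (higher calls over all genes, 0.272%). The list median was 0.32, against -0.30 for all genes. The cystine carrier gene Slc7a11 had 3.17 (0.136), Nqo1, a quinone reductase, 2.89 (0.151), and Srxn1, which repairs peroxiredoxins, 2.32 (0.136) and 2.65 (0.151) at its 2 probes. In these 3 genes too all siRNA samples lay above all wild-type samples. Hmox1, which breaks down haem, had 1.10 (0.622). Nr4a2, an orphan nuclear receptor of the immediate early class, read -1.99, -1.52 and -1.43 in wild type and 2.63, 3.23, 1.27 and 2.24 in siRNA samples, a rise of 4.10 ± 0.56 (0.025). Gsta3 within replicates 3 and above had a difference of 4.58, and Nr4a2 3.40. The related gene Nr4a1 had -2.20 (0.19), the opposite sign.

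**Figure D3:**
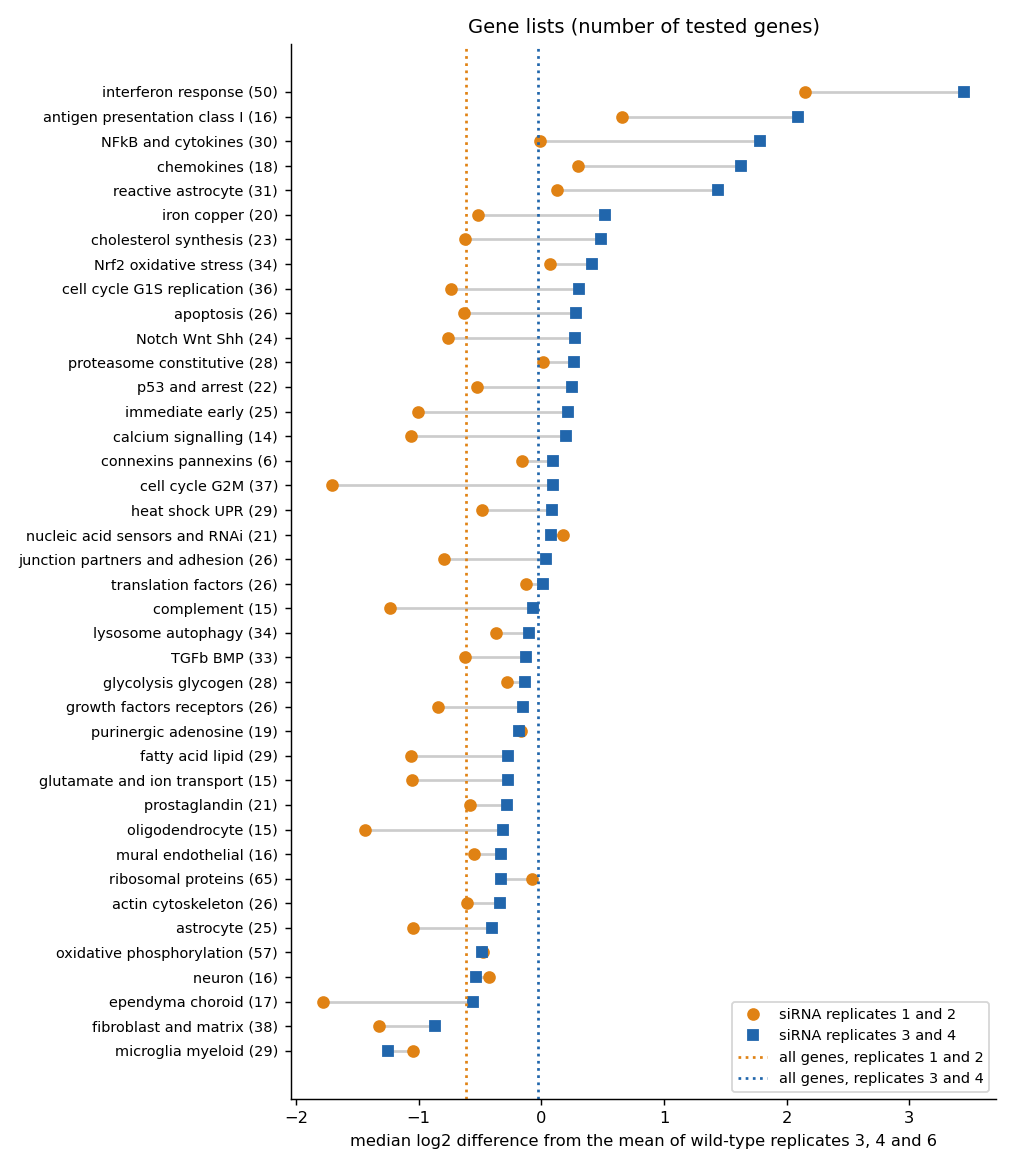
Median log2 difference from the wild-type mean (horizontal axis) of each gene list, as circles for siRNA replicates 1 and 2 and squares for replicates 3 and 4; dotted lines are the medians of all genes. The interferon response list lies farthest to the right in both, at 2.15 and 3.45, and the G2/M list differs between them, at -1.71 and 0.09.

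Hpgd, 15-hydroxyprostaglandin dehydrogenase, the enzyme that inactivates prostaglandins, had the smallest adjusted p among genes that fell and held a value in all 7 samples. It read 4.40, 4.24 and 4.20 in wild type and -1.73, -1.65, -0.54 and -0.34 in siRNA samples. Values in wild type were nearly equal and every siRNA sample was far below them, and it fell by 5.34 ± 0.57 on the log2 scale (40.5-fold, adjusted p = 0.0129), and within replicates 3 and above the difference was -4.72. The null samples read 2.41 to 4.42. Hpgd was the only called gene of the 21 tested on the prostaglandin list (lower calls over all genes, 0.126%). The list median was -0.74, against -0.30 for all genes. In siRNA replicates 1 and 2 it was -0.58, against -0.61 for all genes. For replicates 3 and 4 it was -0.28, against -0.03.

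Adk, adenosine kinase, which clears adenosine in astrocytes, read 4.56, 3.20 and 3.31 in wild type and -1.58 and -1.39 in siRNA replicates 3 and 4; replicates 1 and 2 held no value. It fell by 5.29 ± 0.69 on the log2 scale (39.1-fold, adjusted p = 0.0367). Its difference within replicates 3 and above was -5.18. Null replicates 3 and 4 read 4.58 and 4.68, above all wild-type values. Adk was the 1 called gene of 19 on the purinergic list (lower calls over all genes, 0.126%). Ada, which deaminates adenosine, had 0.04 (0.985).

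Gria2, Npvf and Chgb, which are best known from neurons and endocrine cells, fell too. Gria2, an AMPA glutamate receptor subunit, read 3.24, 3.04 and 3.31 in wild type and -0.40, -0.01, 0.14 and 0.59 in siRNA samples, and fell by 3.07 ± 0.50 (adjusted p = 0.0486). Npvf, a gene of RFamide neuropeptides, read 4.65, 3.70 and 4.58 in wild type and -0.58, -0.01, 0.93 and -0.17 in siRNA samples, and fell by 4.33 ± 0.56 (0.0226). In the null samples Gria2 read 2.28 to 3.51 and Npvf 3.04 to 5.01, above every siRNA sample in both genes. Chgb, chromogranin B of secretory granules, fell by 3.53 ± 0.54 (0.0485). Within replicates 3 and above the differences were -2.83 for Gria2, -3.93 for Npvf and -3.78 for Chgb. The neuron marker list held 0 called genes of 16 tested (median -0.68).

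Sema3b, a secreted guidance protein, fell by 3.49 ± 0.52 (adjusted p = 0.0353), from 3.10, 2.32 and 1.92 to -1.03, -0.57, -1.14 and -1.24; its other probe had -2.06 (0.359). C1d, a cofactor of the RNA exosome, fell by 3.58 ± 0.52 (0.0343), from 3.39, 3.38 and 2.90 to 0.10, 0.04, -0.83 and -0.70. In both genes null replicates 1 and 2 were also low, at -0.33 and 0.38 for Sema3b and -0.01 and 0.08 for C1d, while null replicates 3 and 4 were at 3.12 and 3.13 and at 3.90 and 4.34. Within replicates 3 and above Sema3b had -3.64 and C1d -3.99.

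The 4 largest falls each rested on fewer values. Slc26a3, an intestinal chloride and bicarbonate exchanger, fell by 8.38 ± 0.59 on the log2 scale (333-fold, adjusted p = 0.00584), from 5.94 and 5.51 in wild-type replicates 3 and 4 to -3.12, -2.56, -2.30 and -2.65. Its other probe had 0.38 (0.921), and wild-type replicate 6 held no value at the called one. Egfl6, a secreted matrix protein, fell by 7.14 ± 0.61 (0.0115), from 5.35 and 4.31 in the same 2 wild-type samples to values of -3.07 to -1.87. Tex101, a testis surface protein, fell by 6.88 ± 0.72 (0.0226), again with no value in wild-type replicate 6. Within replicates 3 and above the differences were -8.20 for Slc26a3, -7.52 for Egfl6 and -7.06 for Tex101. Slc26a3 divided the null samples, at -3.68 in replicate 1 and 3.87 and 2.93 in replicates 3 and 4. Tex101 read -1.76, -1.32 and -0.57 in null replicates 1 to 3, below both wild-type values (4.615 and 4.107).

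Null replicates 1 and 2 of Egfl6 read -2.36 and -2.42 and null replicates 3 and 4 read 5.76 and 5.82, so its level divided the null samples by replicate number as widely as it divided siRNA from wild type. Rps13, a ribosomal protein gene, fell by 7.07 ± 0.67 (0.0202) at 1 probe, from 6.05, 7.21 and 7.01 to -1.71 and 0.56 in siRNA replicates 3 and 4, with no value in replicates 1 and 2; null replicates 3 and 4 were low as well, at 0.08 and 1.19. Its other probe had -0.23 (0.914). Of 65 ribosomal protein genes tested this was the only call (lower calls over all genes, 0.126%). Their median was -0.17, against -0.30 for all genes.

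Marker lists of other cell types had medians below 0, with 1 called gene among them, against medians of all genes of -0.61 in siRNA replicates 1 and 2 and -0.03 in replicates 3 and 4. In bulk RNA, fewer cells of a type and less RNA per cell cannot be told apart. Of 29 microglia and myeloid genes 1 fell and 0 rose (lower calls over all genes, 0.126%), and in 14 every siRNA sample lay below every wild-type sample, against 13.6% of all genes. The median was -1.21, and it was -1.04 and -1.25 in siRNA replicates 1 and 2 and replicates 3 and 4. In the null samples it was 1.04 in replicates 1 and 2 and -0.82 in replicates 3 and 4. The summed level (2 to the power of each log2 value, over the 27 genes with a value in all 7 samples) was 509 to 643 in wild type and at most 346 in siRNA samples. The one called, Ly86 (MD-1), which pairs with the Toll-like receptor relative RP105 on immune cells, read 4.52, 4.82 and 4.11 in wild type and 1.11, 0.90, 0.74 and 1.78 in siRNA samples, and fell by 3.32 ± 0.52 (adjusted p = 0.0418; -3.23 within replicates 3 and above). The null samples divided here too, at 5.67 and 5.49 in replicates 1 and 2 and 1.04 and 2.73 in replicates 3 and 4.

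Aif1, the microglial marker Iba1, read 4.66, 3.96 and 2.55 in wild type and 1.44, 1.53, 0.68 and 1.69 in siRNA samples, with a difference of -2.43 (adjusted p = 0.226). Coro1a, a leukocyte actin regulator, had -3.06 (0.0612) and Tyrobp, a signalling adaptor of microglia, -1.67 (0.282). Itgam and Ptprc, which encode CD11b and CD45, overlapped between the groups, with -0.12 (0.962) and -1.34 (0.527). Cd68, Csf1r and Cx3cr1 had no tested probe. The interferon and chemokine genes above rose in samples whose summed microglia level was below that of wild type. A lower sum was not particular to microglia. Summed levels of the astrocyte, fibroblast and matrix, neuron and ependyma lists were also below wild type in every siRNA sample. Those of the oligodendrocyte and mural lists overlapped wild type. The part of cell makeup in these results was not tested.

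Of 25 astrocyte marker genes 0 were called and 7 had positive differences, against 35.1% of all genes. The median was -0.51, against -0.30 for all genes, and was -1.05 in siRNA replicates 1 and 2 and -0.40 in replicates 3 and 4. The summed level over 19 genes was 436 to 650.3 in wild type and 152 to 385 in siRNA samples. Aqp4, the water channel of astrocyte end-feet, read 6.46, 5.70 and 5.63 in wild type and 3.42, 3.34, 4.80 and 5.08 in siRNA samples, with -1.81 (0.374), and its 2 other probes had 0.38 and 0.03. Aldoc, a glycolytic enzyme typical of astrocytes, had -3.38 (0.259), with siRNA replicates 1 and 2 at -2.70 and -2.44 and replicates 3 and 4 at 0.10 and 0.62. Glul, glutamine synthetase, had -0.60 (0.729) at its brighter probe. The glutamate transporter gene Slc1a2 had differences of 0.35 to 1.01 at 3 probes, and Slc1a3 had no testable probe.

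Fibroblast and matrix genes had a median of -1.03 over 38 tested, with 0 called. They lay below wild type in every siRNA sample at 13 genes (13.6% of all genes did) and above at 2 (4.5%). Their summed level over 25 genes was 589 to 642 in wild type and 246 to 437 in siRNA samples. Fbln5, an elastic fibre protein, was just outside the threshold with -2.90 ± 0.49 (0.0539), at 3.74, 3.68 and 4.26 in wild type and 0.55, 1.44, 0.65 and 1.01 in siRNA samples. Dcn, decorin, had -4.59 (0.23), but its wild-type samples spread from -0.35 to 4.49. The ependyma list had a median of -1.20 over 17 genes, oligodendrocyte genes -0.72 over 15 and mural and endothelial genes -0.60 over 16, with 0 called in each. In siRNA replicates 1 and 2 and in replicates 3 and 4 the medians were -1.78 and -0.56 for ependyma, -1.44 and -0.31 for oligodendrocyte, -0.55 and -0.33 for mural and endothelial and -0.43 and -0.53 for neuron genes. The mural and neuron medians were thus not below that of all genes in the first pair.

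**Figure D4:**
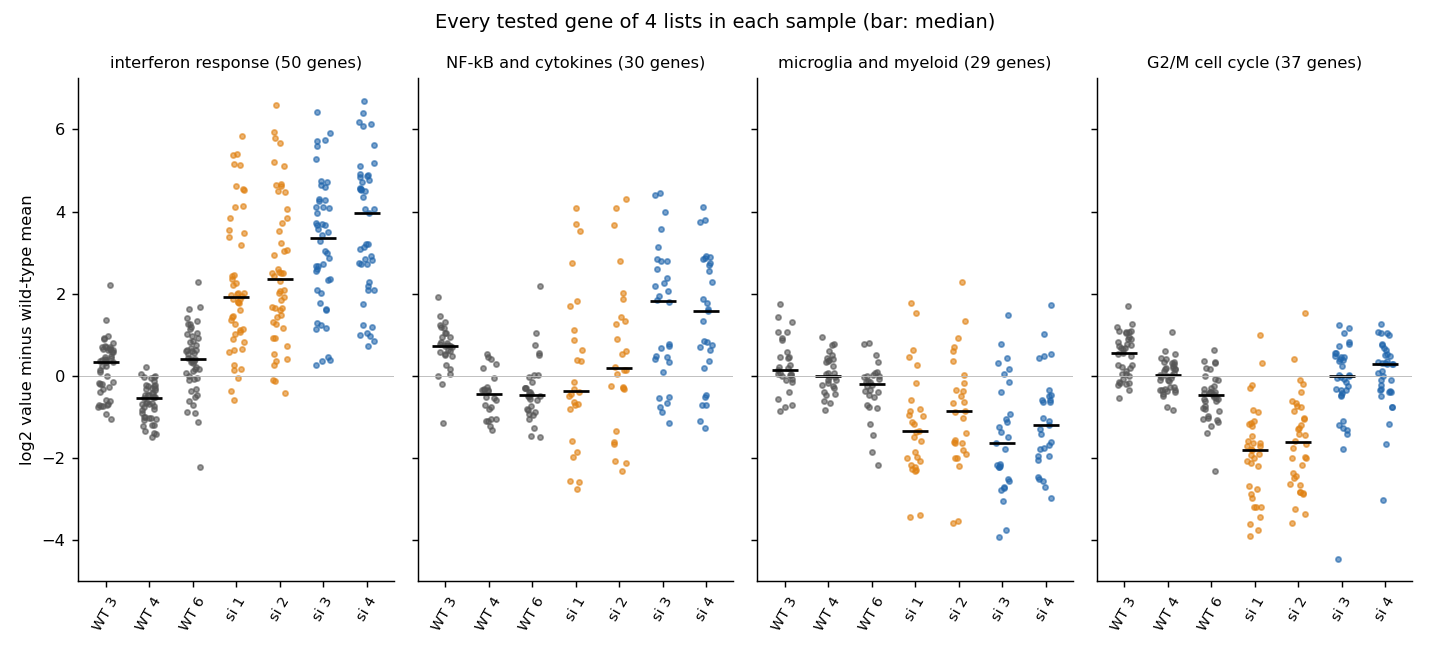
Each point is 1 tested gene of a list in 1 sample, as its log2 value minus the wild-type mean (vertical axis), over wild-type replicates 3, 4 and 6 and siRNA replicates 1 to 4 (horizontal axis); bars are list medians. The interferon response medians in siRNA samples run from 1.91 to 3.97.

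Other connexins gave little. Gjb2 had too few values to be tested and Gjb6 has no probe on the array. Gjc1, which encodes connexin45, read 2.05, 1.22 and 0.50 in wild type and 0.95, 1.52, 1.00 and 1.32 in siRNA samples, with -0.09 ± 0.55 (adjusted p = 0.969) and full overlap. Its sign changed with the setting, to 0.22 with the null samples added. Panx1, a channel protein that releases ATP, had 1.38 ± 0.54 (0.423), with siRNA values of 1.23 to 2.29 against -0.24 to 0.66 in wild type, and 0.91 at its other probe. Of 6 connexin and pannexin genes tested 0 were called (median -0.03, against -0.30 for all genes). Over all genes 0.272% were called higher and 0.126% lower.

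Tjp1, which encodes the Cx43-binding scaffold ZO-1, divided the siRNA samples. It read 0.76, -0.16 and 1.27 in wild type, -2.02 and -2.11 in siRNA replicates 1 and 2, and 3.36 and 3.27 in replicates 3 and 4. The mean difference was -0.02 ± 1.45 (adjusted p = 0.998), while within replicates 3 and above it was 2.69 (0.058). Null replicates 1 and 2 were low as well, at -2.65 and -2.33, and null replicates 3 and 4 higher, at 2.63 and 0.94. The siRNA and the null samples were thus divided in the same way for this gene, and no wild-type value of replicates 1 and 2 was used to place it.

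The same division touched whole lists. The G2/M cell cycle list had a median of -0.93 over 37 genes with 0 called, made up of -1.71 in siRNA replicates 1 and 2 and 0.09 in replicates 3 and 4; in the null samples it was -0.98 and -0.03. For the genes of oxidative phosphorylation the median was -0.48 in siRNA replicates 1 and 2 and -0.49 in replicates 3 and 4 (57 genes, 0 called), close to that of all genes in the first pair and below it in the second. Cholesterol synthesis genes had -0.62 and 0.48 (23 genes, 0 called). The interferon list, at 2.15 and 3.45, and the microglia list, at -1.04 and -1.25, kept their sign in both siRNA pairs. In the null pairs both changed sign, with 0.57 and -0.31 for the interferon list and 1.04 and -0.82 for the microglia list.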

How the data were processed

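The 7 columns compared hold 1 deposited log2 value per probe, processed by the authors and, as the values show, centred on the median of each of 48 print blocks of 700 probes. Scanner, background correction, filter and normalization are not stated in any source at hand; a different background floor or spot filter would move dim probes most. Gene symbols came from the platform annotation (87 probes had several symbols and 15334 none; 0 were updated through RefSeq GRCm38.p6).

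Values were fitted with limma 3.58.1 (R 4.3.3; lmFit, eBayes) with group and dye as terms, on probes with 2 or more values per side, two-sided, Benjamini-Hochberg adjusted over all tested probes; adjusted p-values in the text come from this fit. The script was tested on simulated data. The number of arrays limits the precision. Each list gene is represented by its brightest probe for medians and by any probe for calls.

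Members and lists were chosen with earlier results of these data known. Named genes were Gja1, the 12 largest called rises and falls with no overlap and the same sign within replicates 3 and above, up to 3 called members per list (40 lists, 1003 genes tested) and 16 preset genes; others in the text are list members or second probes, named after their values were seen. Alternatives varied dye, filter, normalization, samples, blocks and weights. The table of 14 columns held 0 others.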

Additional observations from a re-analysis of the deposited data

Results flagged for a closer look

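Of 72 sets of 4 siRNA values examined, for the genes named and the list medians, 1 had a value far from the others. Il6 read 1.29, 1.29, 1.60 and 1.30 in siRNA replicates 1 to 4, and the gap between replicate 3 and the nearest of the others made up 0.967 of the whole range, above Dixon's critical value for 4 samples. Chance alone marks about 1 in 20 such sets. The range itself is small, and all 4 values lay above the wild-type values of -3.60 to -2.29.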

How the results depend on the processing

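Against 59 calls, 93 were made without the dye term, 7 with at least 3 values per side, 1145 with a term for replicates 1 and 2 against 3 and above, 374 within replicates 3 and above, 1452 with the null samples and that term, 14 with consecutive samples as a random block (consensus correlation 0.674), 603 with array weights and 2167 at an unadjusted p under 0.05 and a 1.5-fold difference. The term moved the median of all tested probes from -0.22 to 0.06. Of the 59 calls, 59 were also called with the term and with array weights, and 54 with the null samples. Interferon calls, 14 as reported, numbered 2, 35, 25, 31, 3 and 34 with 3 values per side, the term, replicates 3 and above, null samples, consecutive samples and weights. With 1 sample left out, calls ran from 0 to 126 and interferon calls from 0 to 21. Wild type and siRNA share only the numbers 3 and 4: the differences between those numbers correlated at 0.466 over 19247 probes, odd and even numbers also carry different dyes, and the replicate block gave 2649 calls, 33 of them interferon genes. The cause of these changes was not tested.

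Signs turned for 2 genes with differences near 0. Gjc1 had 0.22 with the null samples, 0.074 with consecutive samples as a block and -0.43 to 0.57 with 1 sample left out. Tjp1 had 2.67 with the term, 2.69 within replicates 3 and above, 2.36 with the null samples, 3.01 with the replicate block, 1.13 with array weights and -1.38 to 1.31 with 1 sample left out. No sample holds an intensity or background value, so what depth limits cannot be stated; 10 of the 43 called probes with a symbol rest on 2 values on a side.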
